A study of Mus musculus with 12 samples.

Results

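The genes of the TNF and TNF receptor superfamilies were examined in epididymal white adipose tissue (eWAT), the visceral fat pad around the mouse epididymis. The members were all genes filed under a name that starts with *Tnfsf* (ligands) or *Tnfrsf* (receptors), together with *Tnf*, *Ltb*, *Ltbr*, *Cd40*, *Fas* and *Cd27*, and their transcripts were summed per gene. This gave 34 members of 23133 genes in all, of which 11 were ligands, 4 were receptors with a death domain, 3 were decoy receptors and 16 were other receptors. RNA was sequenced from 3 representative mice of each of 4 groups, giving 12 libraries. All mice were male, individually housed C57BL/6J animals that were 21 weeks old after 16 weeks on the experimental diet, which they received from 5 weeks of age. The groups were fed a normal diet (ND), a high-fat diet (HFD), the HFD with 1.5% (w/w) of an ethanol extract of chrysanthemum leaf (CLE), or the HFD with 0.003% (w/w) of luteolin (LU), a plant flavone. The CLE and LU mice thus ate the high-fat diet too, and their shared control was the HFD group. The question was how the obesogenic diet, the extract and the single compound differed in their effect on this tissue.

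TNF is a membrane-anchored cytokine that is cut from the cell surface and signals as a trimer through 2 receptors, TNFR1 (*Tnfrsf1a*), which carries a death domain and is found on most cells, and TNFR2 (*Tnfrsf1b*), which lacks one and is found mainly on immune and endothelial cells. Its relatives share this plan: trimeric ligands bind receptors that recruit either death domain adaptors and caspases or TRAF adaptors, which lead to NF-kB, while decoy receptors bind ligand without a signal of their own. In obese adipose tissue TNF comes largely from macrophages and is known for lowering the insulin response of adipocytes.

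The deposited values were FPKM (fragments per kilobase of transcript, scaled to the fragments of the library), a level per length, so that levels of different genes may be set side by side. The table gives no read counts, and how many reads a value rests on is not known. The totals over genes, from the transcripts kept, were between 438191 and 458413 FPKM per library. Over all deposited transcripts, including assembled ones left out here, the totals ranged more widely, from 1.29e+06 to 6.41e+06 FPKM per library. For the genes used, the scaling factors by median ratios were between 0.963 and 1.03, and Pearson's r between libraries of a group was between 0.978 and 0.991. The labels mark 4 libraries with the letter R, whose meaning they do not give: LU mouse 2, CLE mouse 4 and ND mice 3 and 4. The column headings of these libraries also share a suffix of digits that no other used column carries, again without a stated meaning. None of the HFD libraries carries either mark. The tissue was extracted whole, and the 7 adipocyte genes examined (among them *Adipoq*, at 1107 FPKM or more) were detected throughout. The column of ND mouse 4 was assigned by inference from its heading. A gene was tested where it reached 1 FPKM in at least 3 libraries, which 12814 genes and 20 members did. A call needed an adjusted p below 0.05 in limma, by Benjamini-Hochberg, together with a fold change above 1.5. Fold changes were taken on log2(FPKM + 1), and for genes near 1 FPKM they are smaller than the change in FPKM. Nothing in the labels links mice of different groups.

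Several members lie next to each other, so that a read near a gene's end could be credited to its neighbour. *Ltb* and *Tnf* on chromosome 17 were 3.06 kb apart, and *Tnfrsf1b* and *Tnfrsf8* on chromosome 4 were 20.3 kb apart. On chromosome 7, *Tnfrsf22* lay 6.08 kb from *Tnfrsf26* and 16.1 kb from *Tnfrsf23*, the latter and *Tnfrsf22* being the mouse decoy receptors for TRAIL. These paralogs are similar in sequence, so the split of reads between them is uncertain. On chromosome 6, *Ltbr* lay 35.5 kb from *Tnfrsf1a* and 69.6 kb from *Cd27*.

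The sequences just upstream of 5 members are shown because these genes, the family's name-giving ligand, its neighbour *Ltb* and 3 receptors, had levels that stood apart in the HFD mice, and *Tnf* and *Ltb* lie side by side, the one at its highest and the other at its lowest in those mice. The bases come from RefSeq (GRCm38.p6), on the gene's own strand, 5′ to 3′, from 250 bases before the RefSeq start up to that start or up to the GENCODE gene, whichever came first. Capitals mark matches to the kappaB letters GGNNTTTCC on either strand, a short pattern for sites bound by NF-kB subunits. Windows without capitals may hold sites with other letters, and sites further away were not searched. The windows are chr17:35202008-35202257 (minus strand) for *Tnf*, chr17:35194257-35194438 (plus strand) for *Ltb*, chr4:145246871-145247120 (minus strand) for *Tnfrsf1b*, chr1:105780473-105780717 (plus strand) for *Tnfrsf11a* and chr11:61126505-61126754 (plus strand) for *Tnfrsf13b*.
Tnf: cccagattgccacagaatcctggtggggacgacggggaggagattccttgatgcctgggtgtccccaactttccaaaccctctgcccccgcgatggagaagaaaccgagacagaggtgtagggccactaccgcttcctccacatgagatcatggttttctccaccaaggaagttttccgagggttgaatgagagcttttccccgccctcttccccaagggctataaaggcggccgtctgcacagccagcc
Ltb: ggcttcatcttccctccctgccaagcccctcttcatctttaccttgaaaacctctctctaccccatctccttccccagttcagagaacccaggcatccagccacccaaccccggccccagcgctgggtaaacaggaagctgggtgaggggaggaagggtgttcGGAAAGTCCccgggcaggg
Tnfrsf1b: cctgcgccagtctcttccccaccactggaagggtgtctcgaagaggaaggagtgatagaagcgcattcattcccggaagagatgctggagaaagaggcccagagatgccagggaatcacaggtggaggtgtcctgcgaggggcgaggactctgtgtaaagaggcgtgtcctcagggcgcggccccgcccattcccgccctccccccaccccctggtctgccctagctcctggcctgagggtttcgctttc
Tnfrsf11a: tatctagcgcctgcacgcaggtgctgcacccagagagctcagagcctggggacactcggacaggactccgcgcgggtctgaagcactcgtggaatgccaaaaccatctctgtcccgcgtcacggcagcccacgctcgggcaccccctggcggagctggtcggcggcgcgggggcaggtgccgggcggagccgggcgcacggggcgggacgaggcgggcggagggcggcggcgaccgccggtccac
Tnfrsf13b: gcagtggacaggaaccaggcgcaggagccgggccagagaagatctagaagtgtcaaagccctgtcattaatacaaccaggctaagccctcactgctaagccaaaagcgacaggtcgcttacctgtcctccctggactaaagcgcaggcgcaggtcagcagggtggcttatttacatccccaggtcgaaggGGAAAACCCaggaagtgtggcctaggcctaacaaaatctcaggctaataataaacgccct

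The match in *Ltb* began 87 bases before the RefSeq start and the match in *Tnfrsf13b* 60 bases before it, both on the reverse strand. RefSeq windows, here from 250 bases before to 50 bases after the start, were found for 27 of the 34 members, 30 windows in all. The kappaB letters stood in 3 of these windows, those of *Ltb*, *Tnfrsf13b* and one of *Tnfrsf9*, whereas they stood in 5.82% of all 32851 windows. The AP-1 letters TGANTCA, which read the same on both strands apart from the free base, stood in 6 windows of 5 members (*Fas*, *Tnfrsf8*, *Tnfrsf9*, *Tnfsf13b* and *Tnfsf14*) and in 7.81% of all windows. The match in *Ltb* belongs to a gene whose lowest values were in the HFD mice, and the match in *Tnfrsf13b* to one whose highest values were in those mice.

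**Figure D1:**
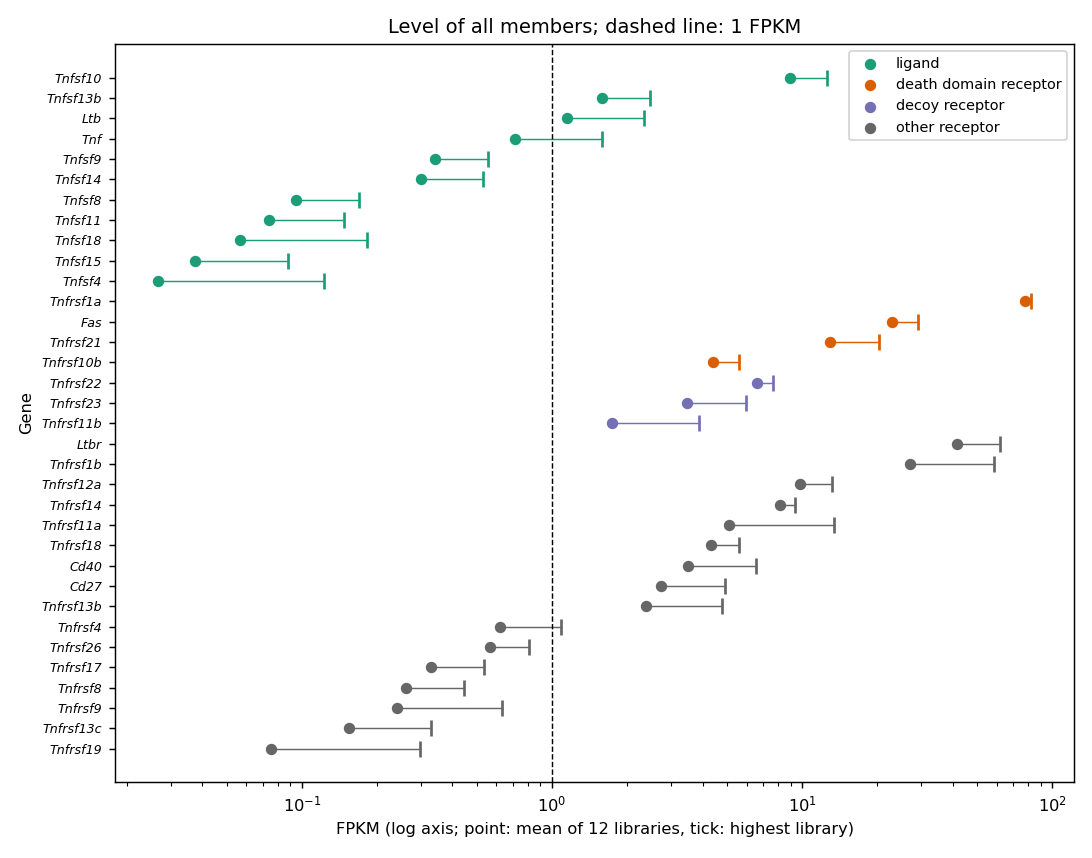
Level of all 34 members, grouped by role, on a log FPKM axis: the point is the mean of the 12 libraries, the tick is the highest library, and the dashed line is 1 FPKM. *Tnfrsf1a* had the highest mean (77.7 FPKM), followed by *Ltbr* (41.6 FPKM) and *Tnfrsf1b* (27.0 FPKM), while 7 of the 11 ligands stayed below 0.553 FPKM in their highest library.

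The highest levels in this tissue were those of receptors. Among the ligands, *Tnfsf10* (TRAIL, which binds death receptors) had the highest mean over the 12 libraries, at 8.94 FPKM, followed by *Tnfsf13b* (BAFF, a survival factor of B cells) at 1.58 FPKM, *Ltb* (lymphotoxin beta, a membrane ligand made mainly by lymphocytes) at 1.14 FPKM and *Tnf* at 0.710 FPKM. The other 7 ligands did not pass the filter. Of these, *Tnfsf9* (4-1BB ligand) and *Tnfsf14* (LIGHT) reached 0.553 and 0.528 FPKM in their highest library, and *Tnfsf11* (RANKL), *Tnfsf8*, *Tnfsf15*, *Tnfsf18* and *Tnfsf4* (OX40 ligand) reached no more than 0.182 FPKM. Receptors that did not pass were *Tnfrsf4* (OX40, highest library 1.08 FPKM), *Tnfrsf26* (0.808), *Tnfrsf9* (4-1BB, 0.632), *Tnfrsf17* (BCMA, of plasma cells, 0.535), *Tnfrsf8* (CD30, 0.447), *Tnfrsf13c* (the BAFF receptor of B cells, 0.327) and *Tnfrsf19* (0.297). These are levels in FPKM of the whole tissue, and in such bulk samples fewer cells of a type cannot be told apart from less RNA per cell.

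**Figure D2:**
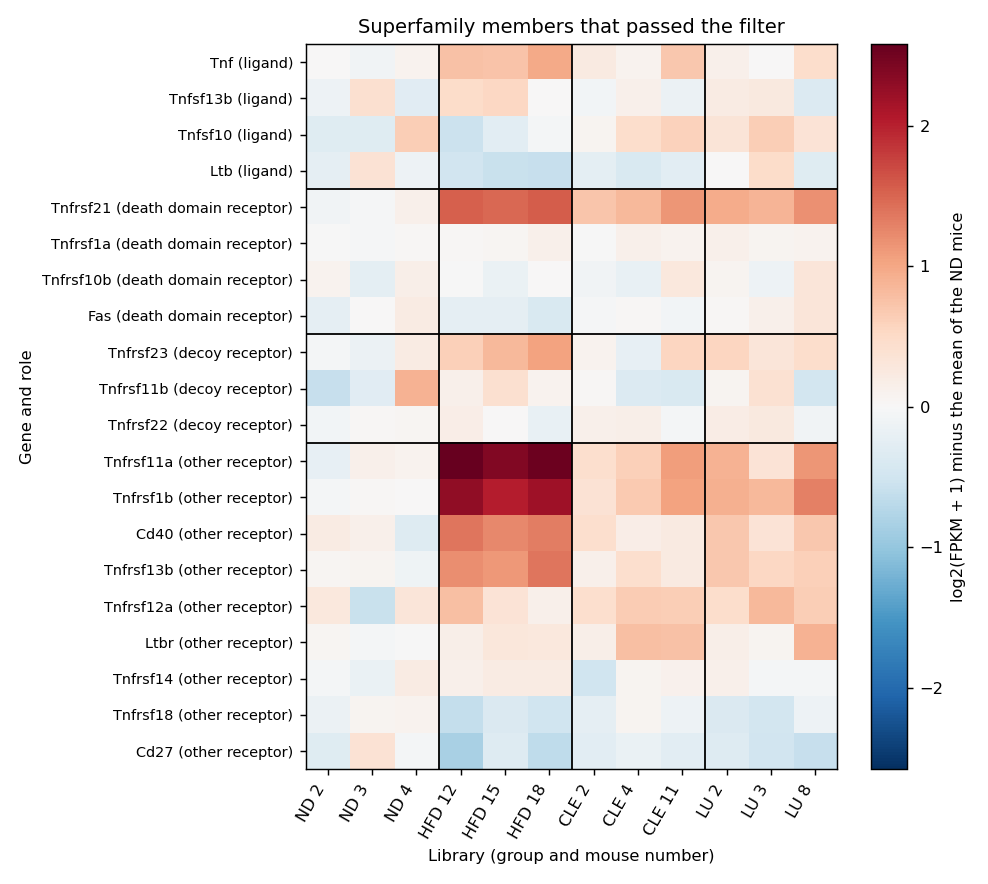
Heat map of the 20 members that passed the filter, one column per library and one row per gene with its role; the colour is log2(FPKM + 1) minus the mean of the 3 ND mice. The darkest red cells are those of *Tnfrsf11a* and *Tnfrsf1b* in the 3 HFD mice, while the *Tnfrsf1a* row stays near white in every library.

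The HFD mice had higher levels of TNF itself and of 6 receptors than the ND mice. Of the 20 members tested, 7 rose and 1 fell with HFD feeding, at a background of 14.9% of all tested genes called higher and 10.8% called lower (25.7% together). *Tnf* passed the filter on low values only through the HFD mice and 1 CLE mouse, so its place among the 7 is no support for the count. Counting groups of 3 that did not overlap in FPKM, 12 members stood apart, 8 higher and 4 lower, where 59.5% of all tested genes did (30.2% higher and 29.3% lower). The number that fell was 3 without ND mouse 2, 2 without ND mouse 4 and 0 without ND mouse 3 or HFD mouse 12. The median log2 fold change of the tested members was 0.23, against -0.02 over all genes tested. With CLE, 6 members were lower and 0 were higher than in HFD mice by the same criteria (10.2% and 6.34% of all genes, 16.5% together), while 11 of the 20, and 43.9% of all genes, had an unadjusted p under 0.05. With LU, 5 were lower and 2 higher (7.68% and 4.77% of all genes, 12.4% together), and the number lower was 3 without HFD mouse 18 or LU mouse 3. *Tnf* was among the 5 lower with LU, and since it was tested only through its high HFD values, its place there is no support for that count either. All these comparisons with HFD share the same 3 HFD mice, so their values stand side by side and are not independent of each other.

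*Tnf* was low throughout and higher in every HFD mouse. Its levels were 0.318, 0.223 and 0.392 FPKM in ND mice 2, 3 and 4, 1.22, 1.19 and 1.59 FPKM in HFD mice 12, 15 and 18, 0.547, 0.385 and 1.11 FPKM in CLE mice 2, 4 and 11, and 0.426, 0.323 and 0.797 FPKM in LU mice 2, 3 and 8. The HFD mice lay above all others, with CLE mouse 11 close to them. The mean was 0.311 ± 0.0846 FPKM in ND and 1.33 ± 0.224 FPKM in HFD mice (SD, n = 3), and the log2 fold change was 0.83 (SE 0.16, limma adjusted p = 0.0011). *Tnf* reached 1 FPKM in 4 libraries, the 3 HFD mice and 1 CLE mouse, so it was tested only because it was high there. With LU it fell by 0.63 on the log2 scale (SE 0.16, adjusted p = 0.0126), a call that was lost without HFD mouse 18 (log2 fold change -0.55) or LU mouse 3 (-0.54). With CLE the log2 fold change was -0.49 (adjusted p = 0.0313), short of the fold criterion, and -0.67 without CLE mouse 11 (adjusted p = 0.00399), which passed it.

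Of the other 3 ligands tested, none was called in HFD against ND, and *Ltb*, *Tnfsf10* and *Tnfsf13b* had limma log2 fold changes of -0.56, -0.29 and 0.34, the first with an unadjusted p under 0.05. Among the 7 ligands under the filter, which were not tested, *Tnfsf18* (GITR ligand) was at 0.148, 0.182 and 0.105 FPKM in HFD mice 12, 15 and 18 and at no more than 0.0629 FPKM in any other mouse. These values are near the floor, and *Tnfsf18* was at 0 in 3 libraries. *Ltb* measured 1.04, 2.11 and 1.18 FPKM in ND mice 2, 3 and 4, 0.705, 0.614 and 0.580 FPKM in HFD mice 12, 15 and 18, 1.01, 0.821 and 0.979 FPKM in CLE mice 2, 4 and 11, and 1.42, 2.34 and 0.945 FPKM in LU mice 2, 3 and 8. All HFD mice lay below all other mice. In HFD against ND the log2 fold change was -0.56 (adjusted p = 0.0280), short of the fold criterion, and -0.67 without ND mouse 2 or -0.63 without ND mouse 4, which passed it. With LU *Ltb* rose by 0.62 on the log2 scale (SE 0.19, limma adjusted p = 0.0312). That call was lost without any of the HFD mice (adjusted p between 0.0666 and 0.0861), without LU mouse 2 (0.0623) and without LU mouse 3 (0.117).

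Lymphocyte genes are set beside *Ltb* here because it is made mainly by those cells. The summed level of the 10 T cell genes was 16.0 FPKM in LU mouse 3, which had the highest *Ltb*, and 5.11 to 8.75 FPKM in the other 11 libraries, with 5.44 to 8.75 FPKM in the HFD mice, where *Ltb* was lowest. The summed B cell and plasma cell list (9 genes) was 104 to 194 FPKM in ND, 221 to 272 in HFD, 127 to 217 in CLE and 202 to 236 FPKM in LU mice. In LU mouse 3, which had the highest *Ltb*, the sum was 231 FPKM, within the range of the HFD mice, where *Ltb* was lowest. Most of the sum was *Ighm* (immunoglobulin mu chain), which rose with HFD feeding (log2 fold change 0.98, limma adjusted p = 0.00368), while *Jchain*, the joining chain of secreted antibodies, fell by 2.17 (adjusted p = 0.0243). Of the same list *Ms4a1* (CD20) and *Cd79a*, both too low to be tested, were at 1.23 and 1.63 FPKM in ND mouse 3, which had the next highest *Ltb*, and at 0.153 FPKM or less in the HFD mice. The part of these genes in the *Ltb* values was not tested.

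*Tnfsf10* measured 5.99, 6.03 and 12.6 FPKM in ND mice 2, 3 and 4, 4.97, 6.27 and 7.50 FPKM in HFD mice 12, 15 and 18, 8.21, 10.9 and 12.1 FPKM in CLE mice 2, 4 and 11, and 10.03, 12.5 and 10.1 FPKM in LU mice 2, 3 and 8. The CLE and LU mice lay above all HFD mice, and the ND group spanned nearly the whole range because of mouse 4. With LU *Tnfsf10* rose by 0.72 on the log2 scale (SE 0.24, limma adjusted p = 0.0449). The call was lost without CLE mouse 4 and without each of the 3 HFD and 3 LU mice, with adjusted p between 0.0515 and 0.153. With CLE its log2 fold change was 0.66 (adjusted p = 0.0551), which was called without any 1 of the ND mice or without CLE mouse 2 (adjusted p between 0.00966 and 0.0495). In ND mouse 4, the highest ND value of *Tnfsf10* stood beside a summed level of the 6 mesothelial genes of 57.4 FPKM, against 2.31 to 21.4 FPKM in the other libraries. In CLE mouse 11 and LU mouse 3, where *Tnfsf10* was about as high (12.1 and 12.5 FPKM), that sum was 7.16 and 15.9 FPKM. The part of the mesothelial genes in these values was not tested. The fourth ligand, *Tnfsf13b*, had overlapping groups in all comparisons with HFD, with means of 1.44 ± 0.663 FPKM in ND, 2.06 ± 0.586 in HFD, 1.34 ± 0.237 in CLE and 1.48 ± 0.534 in LU mice (SD, n = 3).

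**Figure D3:**
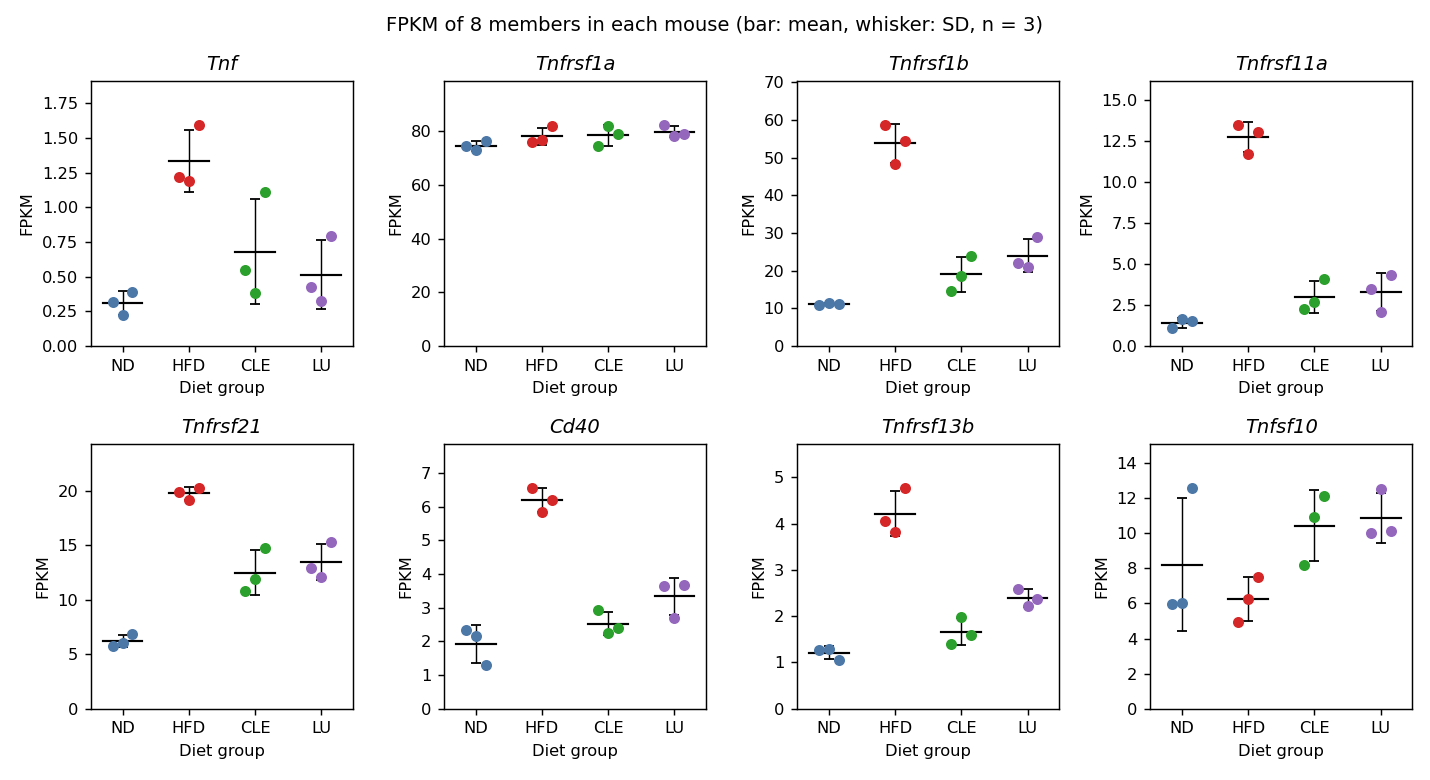
FPKM of 8 members in each mouse by diet group, on axes from 0; points are mice, the bar is the mean and the whisker the SD (n = 3). *Tnfrsf1a* sits between 72.8 and 82.2 FPKM in all groups, whereas the HFD mice stand above all others for *Tnf*, *Tnfrsf1b*, *Tnfrsf11a*, *Tnfrsf21*, *Cd40* and *Tnfrsf13b*.

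The receptors of TNF itself differed sharply. *Tnfrsf1a* (TNFR1) was the most abundant member and measured 74.3, 72.8 and 76.5 FPKM in ND mice 2, 3 and 4, 75.9, 76.9 and 81.8 FPKM in HFD mice 12, 15 and 18, 74.3, 81.9 and 79.1 FPKM in CLE mice 2, 4 and 11, and 82.2, 78.3 and 79.0 FPKM in LU mice 2, 3 and 8. The ND and HFD mice overlapped. Its log2 fold change in HFD against ND was 0.07, with a 95% interval from -0.09 to 0.22 (limma adjusted p = 0.459), and in CLE and LU against HFD it was 0.00 and 0.03.

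*Tnfrsf1b* (TNFR2) measured 10.8, 11.5 and 11.2 FPKM in ND mice 2, 3 and 4, 58.6, 48.4 and 54.3 FPKM in HFD mice 12, 15 and 18, 14.7, 18.5 and 23.8 FPKM in CLE mice 2, 4 and 11, and 22.1, 20.9 and 28.9 FPKM in LU mice 2, 3 and 8. Every HFD mouse was above every other mouse, and every ND mouse below every other mouse. The mean was 11.2 ± 0.338 FPKM in ND and 53.8 ± 5.12 FPKM in HFD mice (SD, n = 3), a ratio of 4.81 and a log2 fold change of 2.17 (SE 0.16, limma adjusted p = 1.56e-06). The level fell by 1.47 on the log2 scale with CLE (adjusted p = 6.32e-05) and by 1.14 with LU (adjusted p = 0.000575), in each case with all supplemented mice below all HFD mice. The group means of *Tnfrsf1a* lay between 74.5 and 79.8 FPKM over the same diets.

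Among the other receptors with a death domain, *Tnfrsf21* (DR6) rose and *Fas* and *Tnfrsf10b* did not. *Tnfrsf21* measured 5.72, 6.05 and 6.82 FPKM in ND mice 2, 3 and 4, 19.9, 19.1 and 20.3 FPKM in HFD mice 12, 15 and 18, 10.8, 11.9 and 14.8 FPKM in CLE mice 2, 4 and 11, and 12.9, 12.1 and 15.3 FPKM in LU mice 2, 3 and 8. The CLE and LU mice lay between the ND and HFD mice with no overlap on either side. The log2 fold change in HFD against ND was 1.53 (SE 0.12, limma adjusted p = 1.9e-06). *Tnfrsf21* fell by 0.63 with CLE (adjusted p = 0.00179), or by 0.54 without CLE mouse 2, which is short of the fold criterion. With LU the log2 fold change was -0.53 (adjusted p = 0.0073), short of that criterion, and -0.62 without LU mouse 8, which passed it.

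*Fas* (CD95, the receptor of Fas ligand) had means of 23.6 ± 3.73 FPKM in ND, 19.0 ± 1.27 in HFD, 23.0 ± 0.952 in CLE and 26.3 ± 2.62 in LU mice (SD, n = 3). The HFD mice lay below all other mice, but only just, with HFD mouse 15 at 19.82 FPKM and ND mouse 2 at 19.87 FPKM. The log2 fold change was -0.29 in HFD against ND (limma adjusted p = 0.0562) and 0.45 in LU against HFD (adjusted p = 0.0147), both under the fold criterion. *Tnfrsf10b*, the mouse TRAIL death receptor, overlapped between all groups at means of 4.15 to 4.68 FPKM, and 52.0% of its level came from transcripts assembled from the reads that share a splice junction with the known gene.

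Of the decoy receptors, *Tnfrsf23* rose with HFD feeding. It measured 2.26, 2.03 and 2.88 FPKM in ND mice 2, 3 and 4, 4.18, 5.01 and 5.97 FPKM in HFD mice 12, 15 and 18, 2.59, 1.91 and 3.96 FPKM in CLE mice 2, 4 and 11, and 3.95, 3.16 and 3.63 FPKM in LU mice 2, 3 and 8. The HFD mice were above all others, by a narrow margin over CLE mouse 11. The log2 fold change was 0.83 (SE 0.18, limma adjusted p = 0.00261). *Tnfrsf23* fell by 0.69 with CLE (adjusted p = 0.0124), a call that was lost without HFD mouse 18 (adjusted p = 0.0540) or CLE mouse 4 (0.0519). Its chromosomal neighbour *Tnfrsf22*, also a decoy for TRAIL, had means of 6.29 to 6.97 FPKM with overlapping groups. *Tnfrsf11b* (osteoprotegerin, a secreted decoy for RANKL and TRAIL) ranged from 0.736 to 3.88 FPKM, with its highest value in ND mouse 4, the library with the highest mesothelial sum, and overlapped in HFD against ND.

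*Tnfrsf11a* (RANK, the receptor of RANKL and known for its place in osteoclast and macrophage lineages) showed the largest log2 fold change of the members in HFD against ND. It measured 1.09, 1.64 and 1.56 FPKM in ND mice 2, 3 and 4, 13.5, 11.7 and 13.0 FPKM in HFD mice 12, 15 and 18, 2.25, 2.68 and 4.07 FPKM in CLE mice 2, 4 and 11, and 3.48, 2.08 and 4.34 FPKM in LU mice 2, 3 and 8. All HFD mice were above all others and all ND mice below all others. The mean was 1.43 ± 0.295 FPKM in ND and 12.7 ± 0.929 FPKM in HFD mice (SD, n = 3), and the log2 fold change was 2.51 (SE 0.20, limma adjusted p = 2.65e-06). It fell by 1.80 with CLE (adjusted p = 7.35e-05) and by 1.71 with LU (adjusted p = 0.000237). Its ligand *Tnfsf11* stayed at or under 0.147 FPKM in every library.

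*Cd40*, the co-stimulatory receptor of antigen-presenting cells, measured 2.32, 2.15 and 1.29 FPKM in ND mice 2, 3 and 4, 6.55, 5.83 and 6.18 FPKM in HFD mice 12, 15 and 18, 2.92, 2.26 and 2.40 FPKM in CLE mice 2, 4 and 11, and 3.64, 2.70 and 3.67 FPKM in LU mice 2, 3 and 8. The HFD mice stood apart from all others. The log2 fold change was 1.32 in HFD against ND (SE 0.14, limma adjusted p = 2.25e-05), and *Cd40* fell by 1.03 with CLE (adjusted p = 0.000304) and by 0.74 with LU (adjusted p = 0.00371).

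*Tnfrsf13b* (TACI, a receptor of BAFF and APRIL known from B cells and macrophages) measured 1.27, 1.30 and 1.05 FPKM in ND mice 2, 3 and 4, 4.06, 3.82 and 4.77 FPKM in HFD mice 12, 15 and 18, 1.41, 1.99 and 1.59 FPKM in CLE mice 2, 4 and 11, and 2.59, 2.21 and 2.38 FPKM in LU mice 2, 3 and 8. The groups ordered as ND, CLE, LU and HFD with no overlap between any of them. The log2 fold change in HFD against ND was 1.24 (SE 0.10, limma adjusted p = 3.28e-06). *Tnfrsf13b* fell by 0.97 with CLE (adjusted p = 5.66e-05) and by 0.62 with LU (adjusted p = 0.00152), and the LU call was short of the fold criterion without HFD mouse 18 (-0.54) or LU mouse 3 (-0.58).

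*Cd27*, a co-stimulatory receptor of T and B lymphocytes, was the only member called lower with HFD feeding. It measured 2.70, 4.91 and 3.43 FPKM in ND mice 2, 3 and 4, 1.57, 2.63 and 1.90 FPKM in HFD mice 12, 15 and 18, 2.79, 3.10 and 2.82 FPKM in CLE mice 2, 4 and 11, and 2.63, 2.26 and 2.04 FPKM in LU mice 2, 3 and 8. HFD mouse 15 nearly reached ND mouse 2. *Cd27* fell by 0.61 on the log2 scale (SE 0.16, limma adjusted p = 0.00917), close to the fold criterion, and the call was lost without ND mouse 3 (-0.43) or HFD mouse 12 (-0.50). ND mouse 3, the highest, was also the library with the highest *Ms4a1* and *Cd79a*, but the summed B cell and plasma cell list was higher in every HFD mouse than in ND mouse 3, and the part of these genes in this result was not tested. *Tnfrsf18* (GITR, of regulatory T cells) had all HFD mice below all ND mice, at 3.35 ± 0.362 against 5.20 ± 0.579 FPKM (SD, n = 3). Its log2 fold change was -0.51 (limma adjusted p = 0.00392), short of the fold criterion.

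The last 3 receptors passed no comparison with HFD. *Ltbr*, the receptor of lymphotoxin beta and LIGHT, had means of 33.0 ± 1.11 FPKM in ND, 39.1 ± 2.20 in HFD, 50.04 ± 11.6 in CLE and 44.3 ± 15.2 in LU mice (SD, n = 3). All HFD mice (36.5 FPKM or more) lay above all ND mice (34.1 FPKM or less). CLE mice 4 and 11 (57.2 and 56.3 FPKM) and LU mouse 8 (61.9 FPKM) stood apart from the other 9 libraries, which lay between 31.9 and 40.4 FPKM. *Tnfrsf12a* (the TWEAK receptor Fn14) had means between 7.19 FPKM in ND and 11.4 FPKM in LU mice. *Tnfrsf14* (HVEM, the receptor of LIGHT) had means of 7.48 to 9.17 FPKM, and 67.0% of its level came from transcripts assembled from the reads. All CLE and LU mice (8.74 and 8.76 FPKM or less) lay narrowly below all HFD mice (8.87 FPKM or more).

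**Figure D4:**
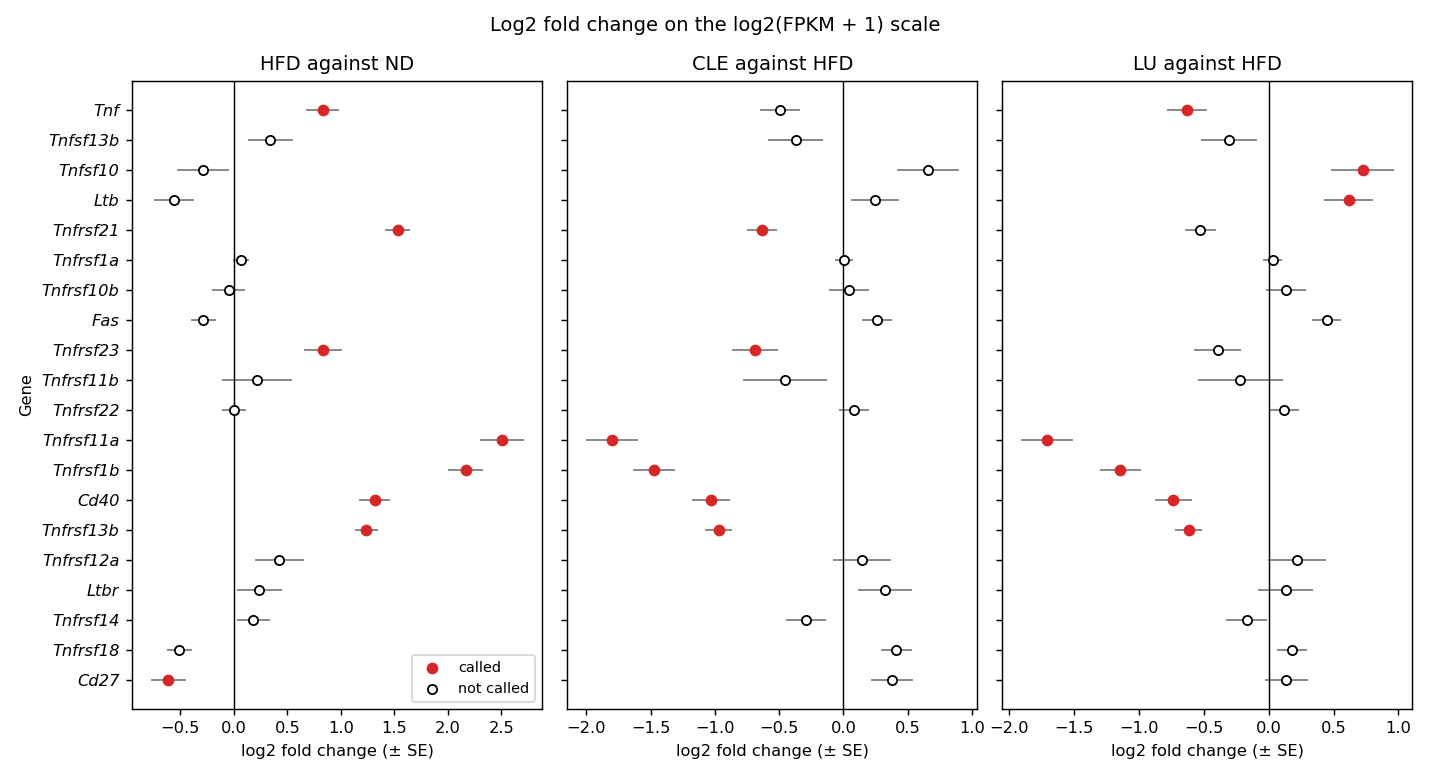
Log2 fold change (± SE) of the 20 tested members on the log2(FPKM + 1) scale for HFD against ND, CLE against HFD and LU against HFD; filled points were called. *Tnfrsf11a*, *Tnfrsf1b*, *Cd40* and *Tnfrsf13b* lie to the right of 0 in the first panel and to the left of 0 in the others, and the axes of the panels differ in range.

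The extract and the pure compound were set against each other directly. In CLE against LU limma called 0 of the 20 members, with a lowest adjusted p of 0.898, and 0.0078% of all tested genes. At an unadjusted p under 0.05 there was 1 member, *Tnfrsf13b*, against 5.21% of all genes. Its log2 fold change was -0.35, with all CLE mice below all LU mice and a 95% interval from -0.58 to -0.13. For *Tnfrsf1b* the difference was -0.33 (95% interval -0.68 to 0.02), for *Tnfrsf11a* -0.09 (-0.54 to 0.35), for *Cd40* -0.30 (-0.61 to 0.02) and for *Tnf* 0.14 (-0.21 to 0.48). The interval of *Tnfrsf13b* lay below 0, those of *Tnfrsf1b* and *Cd40* ended at 0.02, and those of *Tnfrsf11a* and *Tnf* reached further to both sides. In sign 4 of the 20 members were higher with CLE than with LU, and their median log2 difference was -0.09 against -0.03 over all genes. A missed threshold thus does not show that CLE and LU had the same effect. The doses differ in kind as well, since the extract holds many compounds.

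Some members stayed above the ND level under the supplements, and more were called so with LU than with CLE, a difference in count that was not itself tested. In CLE against ND, 2 members were higher and 0 lower by limma, at 2.11% and 0.874% of all genes (2.98% together), and 6 of the 20 had an unadjusted p under 0.05 (23.3% of all genes). In sign 12 of the 20 were higher, and the median log2 difference of the 20 was 0.11 against 0.01 over all genes. The called ones were *Tnfrsf21* (log2 fold change 0.90, limma adjusted p = 0.00739) and *Tnfrsf1b* (0.69, adjusted p = 0.0349), the latter lost without any 1 of 7 libraries (ND mice 2, 3 and 4, HFD mice 12 and 18, CLE mice 4 and 11; adjusted p between 0.0501 and 0.106), each of which left 1 member called. In LU against ND, 4 were higher and 0 lower by limma, at 4.98% and 1.59% of all genes (6.57% together), and 9 of the 20 had an unadjusted p under 0.05 (27.7% of all genes). In sign 17 of the 20 were higher, and the same median was 0.18 against 0.03 over all genes. *Tnfrsf1b* was higher by 1.02 (adjusted p = 0.00296) and *Tnfrsf21* by 1.00 (adjusted p = 0.00121). *Tnfrsf11a* (0.80, adjusted p = 0.0251) was lost without ND mouse 2, LU mouse 2 or LU mouse 8, and *Tnfrsf13b* (0.62, adjusted p = 0.00373) without ND mouse 4 or LU mouse 2. The number higher in LU against ND was 2 without LU mouse 2, and the number lower was 1 (*Cd27*) without ND mouse 2.

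Superfamily genes that the deposited table files under a neighbouring gene's name were outside the rule and are given apart. *Tnfsf12* (TWEAK, the ligand of Fn14) and *Tnfsf13* (APRIL, a ligand of TACI) stood under *Senp3*, as did *Tnfsfm13*, a read-through of both that overlaps them, so that their levels cannot be told apart cleanly. *Tnfsf13* measured 3.44, 2.66 and 2.77 FPKM in ND mice 2, 3 and 4, 9.51, 8.81 and 8.48 FPKM in HFD mice 12, 15 and 18, 3.64, 5.24 and 4.15 FPKM in CLE mice 2, 4 and 11, and 4.58, 3.45 and 4.91 FPKM in LU mice 2, 3 and 8. All HFD mice were above all others. It rose by 1.33 with HFD feeding (limma adjusted p = 1.25e-05), and fell by 0.90 with CLE (adjusted p = 0.000444) and by 0.91 with LU (adjusted p = 0.000743). *Tnfsf12* rose by 1.03 (adjusted p = 0.000127) and fell by 0.79 with CLE and by 0.62 with LU, and the call with LU was lost without HFD mouse 12 (fell by 0.52) or LU mouse 3 (fell by 0.54). *Tnfrsf25* (DR3, a death domain receptor), filed under *Plekhg5*, had a log2 fold change of -0.67 in HFD against ND (adjusted p = 0.0779). Of 9 other superfamily genes with names outside the rule (among them *Lta*, *Fasl*, *Cd40lg* and *Ngfr*), 3 were tested by limma (*Eda*, *Eda2r* and *Relt*) and 0 were called in HFD against ND, with 1 at an unadjusted p under 0.05, *Eda2r* (log2 fold change 0.53, adjusted p = 0.0207), short of the fold criterion.

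The genes of ligand shedding and those of the TRAF adaptors were mixed. Of the 7 genes that act on ligand release, 2 rose and 1 fell in HFD against ND (28.6% and 14.3%, beside 14.9% and 10.8% of all genes). *Adam17*, the sheddase that releases TNF, rose by 1.21 (29.9 ± 1.87 against 12.3 ± 0.553 FPKM, SD, n = 3, limma adjusted p = 3.01e-06) and *Sppl2a*, a protease that cuts the stub TNF leaves in the membrane, by 0.65. *Timp3*, an inhibitor of ADAM17, fell by 0.82 (67.7 ± 11.4 against 124 ± 41.9 FPKM, adjusted p = 0.0142). With CLE and LU *Adam17* fell by 0.99 and 0.80, and *Timp3* rose by 1.30 and 1.03. Among the 7 TRAF adaptors 1 was called (14.3%, below the 25.7% of all genes), *Traf5*, which rose by 0.89, and it fell by 0.94 with CLE and by 0.90 with LU. The call of *Timp3* in HFD against ND was lost without ND mouse 2 (limma adjusted p = 0.0586) or without HFD mouse 15 (0.0590), and that of *Sppl2a* with the highest transcript per gene (log2 fold change 0.21).

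Of 14 genes of the receptor complex and cell death, 3 were called with HFD feeding, and all 3 rose. That is 21.4% of the list, near the 25.7% of all tested genes that were called. They were *Ripk3*, a kinase of necroptosis (log2 fold change 0.89, limma adjusted p = 0.000602), *Birc3*, the ubiquitin ligase cIAP2 (0.66), and *Mlkl*, the effector of necroptosis (0.61). With CLE 1 of the 14 was called, *Ripk3*, which fell by 0.67. With LU its log2 fold change was -0.48 (adjusted p = 0.0377), short of the fold criterion. Of 12 IkB kinase and NF-kB genes, 2 were called (16.7%, also below the 25.7% of all genes) and both rose, *Rel* (0.95) and *Nfkb2* (0.59), and *Rel* fell by 0.78 with CLE and 0.66 with LU. The list medians in HFD against ND were 0.33 for ligand release, 0.13 for TRAF adaptors, 0.17 for the receptor complex and 0.19 for the NF-kB genes, against -0.02 over all genes. *Mlkl* and *Nfkb2* stood near the fold criterion and lost their calls without ND mouse 2 (0.51 and 0.52) or HFD mouse 18 (0.58 and 0.57), as did *Mlkl* without HFD mouse 15 (0.58). *Ripk3* lost its call with CLE without HFD mouse 18 (a fall of 0.55) or CLE mouse 4 (also 0.55) and *Rel* with LU without LU mouse 3 (a fall of 0.56).

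Of 24 genes known to be induced by TNF, 19 were tested, 8 rose and 1 fell in HFD against ND (42.1% and 5.26%, beside 14.9% and 10.8% of all genes), with a median log2 fold change of 0.45. The monocyte chemokine *Ccl2* rose by 2.31 (27.6 ± 5.05 against 5.02 ± 2.39 FPKM, SD, n = 3, limma adjusted p = 0.000202), *Tnfaip2* by 1.77 and the chemokine *Ccl7* by 1.73. The gelatinase gene *Mmp9* fell by 1.33 (adjusted p = 0.000328), from 3.13 ± 0.712 to 0.633 ± 0.149 FPKM. With CLE 5 of the 19 fell and 1 rose (26.3% and 5.26%, beside 10.2% and 6.34% of all genes), and with LU 2 fell and 1 rose (10.5% and 5.26%, near the 7.68% and 4.77% of all genes), and the gene that rose was *Mmp9* in both (0.70 and 0.73). In LU against ND 5 of the 19 were higher (26.3%, beside 4.98% of all genes), *Ccl7* by 1.54 and *Ccl2* by 1.33. The rise of *Mmp9* lost its call in both comparisons without HFD mouse 12 (limma adjusted p = 0.0717 with CLE and 0.0746 with LU) or HFD mouse 18 (0.0723 and 0.0745), with CLE also without CLE mouse 2 (0.0926) or 4 (0.0630), and with LU without LU mouse 2 (0.0863) or 3 (0.0659). In LU against ND the call of *Ccl7* was lost without LU mouse 8 (0.0520), and that of *Ccl2* without ND mouse 2 (0.101) or 3 (0.0679) and without LU mouse 2 (0.0628) or 8 (0.104).

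**Figure D5:**
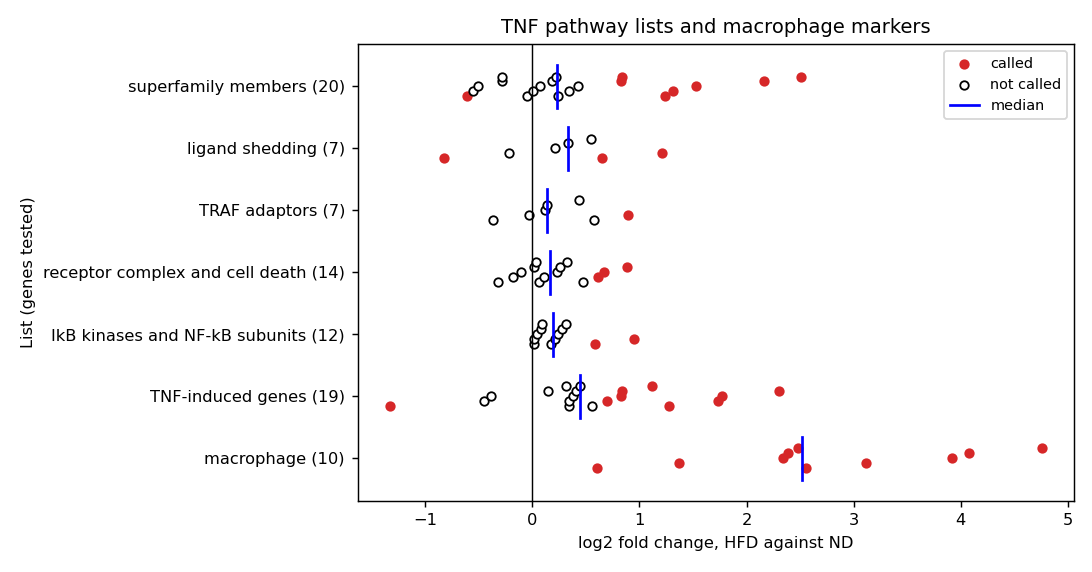
Log2 fold change in HFD against ND for each tested gene of the superfamily, of the TNF pathway lists and of the macrophage markers, one point per gene (filled: called), with the median of each list as a bar. All 10 macrophage genes lie at 0.60 or higher with a median of 2.52, while the pathway lists have medians between 0.13 and 0.45.

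Macrophage genes moved with the members that rose. All 10 macrophage genes of the list (among them *Adgre1*, *Cd68*, *Csf1r* and *Itgax*) were called higher in HFD against ND and lower in CLE and LU against HFD, with median log2 fold changes of 2.52, -1.81 and -1.46. Their summed level was 338 to 505 FPKM in ND, 2347 to 2714 in HFD, 583 to 880 in CLE and 922 to 1062 FPKM in LU mice. Most of this sum was *Lyz2* (227 to 384 FPKM in ND and 1506 to 1787 FPKM in HFD mice). The single genes differed widely, with log2 fold changes in HFD against ND from 0.60 to 4.76, so the ratio of the sums is no common measure of them. The ratio of the mean sums in HFD against ND was 6.36, beside ratios of mean FPKM of 8.92 for *Tnfrsf11a*, 4.81 for *Tnfrsf1b*, 4.29 for *Tnf*, 3.49 for *Tnfrsf13b*, 3.22 for *Cd40*, 3.19 for *Tnfrsf21*, 2.11 for *Tnfrsf23* and 1.05 for *Tnfrsf1a*. Compared with ND mice, 6 of the 10 macrophage genes were called higher in CLE and 9 in LU mice. The part of these genes in the members' levels was not tested.

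Some marker genes of other cell types differed between the groups as well. The summed neutrophil genes were 6.93 to 15.7 FPKM in ND and 73.8 to 123 FPKM in HFD mice, most of it from *S100a8*, a calprotectin subunit (4.84 to 14.1 FPKM in ND and 69.7 to 118 FPKM in HFD mice). The other subunit, *S100a9*, was low and fell by 0.79 on the log2 scale (limma adjusted p = 0.0298). It reached 1 FPKM only in ND mice 2 and 3 and CLE mouse 2, so it was tested only because it was high there. *Csf3r*, the G-CSF receptor, rose by 1.32, and *Ly6g*, the defining marker, was listed at 0 in every library. *Cxcr2* and *Mpo*, also on the list, stayed at or under 0.0764 and 0.0961 FPKM. The adipocyte sum was 27787 to 28918 FPKM in ND and 16422 to 18378 FPKM in HFD mice, with 6 of 7 genes called lower. The seventh, *Lep* (leptin), rose by 2.34 on the log2 scale (limma adjusted p = 9.57e-06). Of the 10 T cell genes 3 were tested by limma and 0 called in HFD against ND, with 0 at an unadjusted p under 0.05. Since FPKM are shares of a library, a fall of the adipocyte share and a rise of another cannot be told apart from changes per cell.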

How the data were processed

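The authors prepared mRNA libraries from total RNA of eWAT and deposited FPKM values, 1 column per library, for 152210 known and read-assembled transcripts. How these FPKM were estimated is not given in the sources used here, which name Cuffdiff for gene-level counts. The submitters' processing notes name CASAVA 1.8.2, Bowtie2 2.2.3, TopHat2 2.0.12 and Cufflinks 2.2.1. The genome build is not given in the sources used here, and 87.6% of the known transcripts had the start and end of GENCODE M21 (GRCm38), whose symbols and positions were used. Of the 15 FPKM columns, 3 matched no sample and were not used. Columns with the authors' own calls were not used either. Other transcripts assembled from the reads were left out, and those kept are known ones and ones of class code = or j.

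Transcripts were summed per gene and tested on log2(FPKM + 1) with limma 3.58.1 (R 4.3.3) where 3 or more libraries reached 1 FPKM. A single linear model held all 12 libraries, with group as its term and empirical Bayes moderation, without trend or covariate, leaving 8 residual degrees of freedom per gene before moderation, and p-values were adjusted by Benjamini-Hochberg over all genes of a comparison. The count test of the study could not be run on FPKM. The members and lists were chosen with earlier results of these data known. Values in every library are given for *Tnf* and its receptors, for members called in HFD against ND, and for members called only with a supplement, and from each pathway list the 3 called genes with the largest difference are named. Some genes are not reported here. *Eda2r*, *Tnfsf18* as a ligand given by mouse, and the marker genes named singly were chosen after their values were seen. Tables and plots were made with Python 3.11.15, pandas 2.3.3, numpy 2.4.6 and matplotlib 3.10.9.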

Additional observations from a re-analysis of the deposited data

How the results depend on the processing

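Of the members' calls, 7 of 8 in HFD against ND held under every alternative and without each library in turn, as did 4 of 6 in CLE against HFD (*Cd40*, *Tnfrsf11a*, *Tnfrsf13b* and *Tnfrsf1b*), 2 of 7 in LU against HFD (*Tnfrsf11a* and *Tnfrsf1b*), 0 of 2 in CLE against ND and 1 of 4 in LU against ND (*Tnfrsf21*). Of the calls among the pathway genes, *Eda2r* included, and *Tnfsf12*, *Tnfsf13* and *Tnfsfm13*, 13 of 21 held in HFD against ND, 9 of 14 in CLE against HFD, 5 of 9 in LU against HFD, 0 of 1 in CLE against ND and 0 of 6 in LU against ND. No called difference of these genes or of a member changed sign under these alternatives. The number of members lower in HFD against ND, 1 in the fit reported, was 3 with a pseudocount of 0.1, 2 with quantile normalization, 3 by the adjusted p alone, 2 with class code j left out, and 0 with the highest transcript per gene, with the letter R as a covariate and without the letter R libraries. The number higher in CLE against HFD, 0 as reported, was 1 with median ratio scaling, with quantile normalization, with only the groups compared and by the adjusted p alone. The number higher in LU against HFD, 2 as reported, was 1 with a pseudocount of 0.1 and without the letter R libraries, and 0 with no filter, with the highest transcript and with the letter R as a covariate; the number lower, 5, was 3 with the highest transcript. The number higher in CLE against ND, 2 as reported, was 1 with no filter, with class code j left out and with the letter R as a covariate, and 0 with only the groups compared and without the letter R libraries. In LU against ND the number higher, 4, was 1 without the letter R libraries, and the number lower, 0, was 1 with class code j left out. Leaving out the letter R libraries leaves 1 ND mouse, which is then assumed to vary like the other groups. The cause of these differences was not tested. Leaving out 1 library at a time gave 7 to 8 members higher and 0 to 3 lower in HFD against ND, 0 to 1 higher and 5 to 7 lower in CLE against HFD, 0 to 2 higher and 3 to 6 lower in LU against HFD, 0 to 0 either way in CLE against LU, 1 to 3 higher and 0 to 0 lower in CLE against ND, and 2 to 5 higher and 0 to 1 lower in LU against ND.

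Some ND, CLE and LU mice share a mouse number (2, 3 or 4). Deviations of same-numbered mice from their group means correlated at -0.10 to 0.19 across genes. With few such pairs and no values for mice of different numbers beside them, this cannot show whether these mice share more than a number. With the number as a replicate block on the ND, CLE and LU libraries, 0 members were higher in CLE against ND and 2 in LU against ND, and in CLE against LU 0 were called. The fit of the same libraries without the block, added after seeing the data, gave 1 in CLE against ND. The deposited FPKM hold no depth, so the counting error of members near 1 FPKM, such as *Tnf* and *Ltb*, is unknown. With 3 mice a group, small differences cannot be seen.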

Other observations

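*Eda2r*, a receptor of ectodysplasin A2 that belongs to the superfamily but not to the named members, was higher than in ND mice in both supplemented groups. It measured 0.731, 1.39 and 1.69 FPKM in ND mice 2, 3 and 4, 2.49, 2.40 and 1.80 FPKM in HFD mice 12, 15 and 18, 2.36, 2.43 and 2.87 FPKM in CLE mice 2, 4 and 11, and 3.38, 3.11 and 2.23 FPKM in LU mice 2, 3 and 8. The ND mice lay below all others. In limma its log2 fold change was 0.67 in CLE against ND (adjusted p = 0.0432), 0.80 in LU against ND (adjusted p = 0.0107) and 0.53 in HFD against ND (adjusted p = 0.0207, short of the fold criterion). The call in CLE against ND was lost without any 1 of 10 libraries, among them CLE mouse 11 (adjusted p = 0.130) and ND mouse 2 (0.104). It was named after its values were seen.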
